A study of Mus musculus with 6 samples.

Results

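The genes described here concern the MCM helicase, the ring that unwinds DNA at replication origins. They encode its subunits and factors that load it, switch it on or block its loading. They were chosen by symbol from a fixed list and not by a rule on their values, though with earlier results of these data known. They are Mcm2, Mcm3, Mcm4, Mcm5, Mcm6, Mcm7, Mcm10, Cdt1, Cdc6 and Gmnn. All 10 were present among the 23420 gene rows of the deposited count table, and all 10 passed the filter on low counts, as 14340 genes did. The libraries came from mouse embryonic stem (ES) cells carrying a stably integrated lentivirus for the KBP(KK/RR) mutant (replicates 4, 5 and 6) or for wild-type KBP (replicates 1, 2 and 3). KBP, the Kif1-binding protein, binds kinesin motors, the labels call KBP(KK/RR) a stable mutant, and both groups were grown under self-renewing conditions. Both groups carried a lentivirus, so the comparison is of cells given one KBP form with cells given the other. The cells' own KBP gene is not stated to have been removed. In this design the KBP form, its level and the transduced cells themselves cannot be told apart. The labels do not say whether the 3 libraries of a group came from separate cultures, so p-values measure only the spread between these libraries.

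Before S phase, the origin recognition complex marks origins, and Cdc6 and Cdt1 join it to load the ring built of the Mcm2 to Mcm7 proteins, a step called licensing. Geminin, the product of Gmnn, binds Cdt1 after licensing and keeps origins from being loaded again in the same cycle. Mcm10 acts later, when loaded helicases are switched on together with Cdc45 and the GINS complex. ES cells spend little time between mitosis and S phase and are known for abundant licensing factors.

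Total counts per library were 24300832 to 29863560 in KBP(KK/RR) cells and 24131743 to 32160411 in wild-type KBP cells. Of the genes tested, 448 passed the threshold (edgeR adjusted p under 0.05). KBP(KK/RR) cells had more RNA for 151 of these and less for 297, and with upper-quartile scaling the split was 235 higher and 205 lower. The row of the KBP gene itself, 2510003E04Rik, was 56.6 ± 2.88 CPM (counts scaled to a common library size) in KBP(KK/RR) cells and 48.3 ± 1.30 CPM in wild-type KBP cells (SD, n = 3 each). That row was called higher (log2 fold change 0.23, edgeR adjusted p = 0.0133) and does not separate vector from endogenous transcripts. Among the ES cell markers, Pou5f1 was 1435 ± 55.8 CPM in KBP(KK/RR) cells and 1451 ± 58.9 CPM in wild-type KBP cells. Sox2 was 399.7 ± 21.9 CPM in KBP(KK/RR) cells and 386 ± 14.3 CPM in wild-type KBP cells. Nanog was 334 ± 9.61 CPM in KBP(KK/RR) cells and 313 ± 9.93 CPM in wild-type KBP cells, and 0 of 6 ES cell markers were called by edgeR. Unadjusted p-values under 0.05 were reached by 3 of these 6, and by 18.6% of all tested genes and 24.1% of those whose mean log2 CPM reached 5, the shares against which such counts are to be read throughout. The 3 did not go one way: Nanog had a log2 fold change of 0.10, while Esrrb and Klf4, named after their values were seen, had -0.09 each.

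Members lay on 8 chromosomes of GRCm38, in the coordinates of the GENCODE M21 annotation. Mcm3 (chr1:20802968-20820312) and Mcm6 (chr1:128331590-128359664) shared chromosome 1, far apart, and Mcm5 (chr8:75109569-75128439) and Cdt1 (chr8:122568015-122573554) shared chromosome 8. Mcm10 (chr2:4989714-5012791), Mcm7 (chr5:138164583-138172422), Mcm2 (chr6:88883474-88898780), Cdc6 (chr11:98907801-98923940), Gmnn (chr13:24751845-24761923) and Mcm4 (chr16:15623897-15637400) were alone on theirs. All are annotated as protein coding.

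Promoters of licensing genes are textbook targets of the E2F transcription factors, so the words TTTGGCGC, TTTCGCGC, TTTCCCGC and TTTGCCGC were searched on both strands. RefSeq windows (GRCm38.p6, 250 bases before to 50 after a gene's start, 300 bases in all) matched 8 of the 10 genes, Gmnn and Mcm4 being the others. An E2F word stood in a window of 6 of these 8, namely Cdc6, Cdt1, Mcm3, Mcm5, Mcm6 and Mcm7, against 2.6% of the 27025 genes with a window. The CCAAT box (CCAAT) stood in windows of 6 of the 8, against 41.1% of genes, and the word TTTGAA in 1, Mcm2, against 20.2%. The next lines show 30 bases around the longest E2F match of each gene, or the one nearest the start where matches were equally long, with the match in capitals, because these words are what most of the members' promoters share.
Mcm6: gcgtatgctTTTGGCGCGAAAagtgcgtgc
Mcm5: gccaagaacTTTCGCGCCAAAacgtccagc
Mcm7: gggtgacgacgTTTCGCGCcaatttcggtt
Mcm3: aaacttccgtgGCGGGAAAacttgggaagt
Cdt1: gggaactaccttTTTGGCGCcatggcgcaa
Cdc6: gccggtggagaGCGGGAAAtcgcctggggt
In Mcm6 (chr1:128359795-128359824, minus strand) and Mcm5 (chr8:75109347-75109376, plus strand) one of these E2F words overlapped with the reverse complement of another, so 12 bases are in capitals. These matches began 110 and 153 bases before the RefSeq start. Those of Mcm7 (chr5:138171849-138171878, minus strand), Mcm3 (chr1:20820275-20820304, minus strand) and Cdt1 (chr8:122568035-122568064, plus strand) began 16, 19 and 32 bases after it. The Cdc6 match (chr11:98908002-98908031, plus strand) began 138 bases before a RefSeq start that lies 350 bases inside the GENCODE gene. Of the 2 RefSeq starts of Mcm7, that of the window shown lies 539 bases inside the GENCODE gene, so sequence just before the GENCODE starts of these genes was not searched. Mcm2 and Mcm10 had no E2F word in their windows. A match describes letters only and shows nothing of binding in these cells.

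None of the 10 licensing genes was called between KBP(KK/RR) and wild-type KBP cells by edgeR, where 3.12% of all tested genes were. In that background 1.05% were called higher and 2.07% lower, and of the 5985 tested genes whose mean log2 CPM reached 5, as it did in all members, 4.53% were called. Their fold changes ran from 0.975 for Cdt1 to 1.08 for Gmnn, and each 95% interval lay between 0.915 and 1.17. DESeq2 and limma-voom also called 0 of the 10, and an unadjusted p under 0.05 was reached by 1, Gmnn. The median log2 fold change over the 10 was 0.04, against -0.00 over all tested genes, and 9 of 10 were above 0. Ranges of the groups did not overlap for 4 of the 10, against 22.4% of all tested genes and 27.6% of the 5985 more abundant ones.

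Of the ring subunits, Mcm2, which carries a histone-binding region, had 687, 713 and 701 CPM in KBP(KK/RR) libraries, against 688, 677 and 712 CPM in wild-type KBP libraries. The groups covered nearly the same range. Its log2 fold change was 0.02 (SE 0.04, 95% interval -0.06 to 0.09, edgeR adjusted p = 0.841). Mcm5, which forms with Mcm2 the gate through which DNA enters the ring, had 629, 669.6 and 669 CPM in KBP(KK/RR) libraries, against 651, 622 and 677 CPM in wild-type KBP libraries. Its lowest and highest libraries were both wild-type KBP ones. The log2 fold change was 0.01 (interval -0.07 to 0.10, edgeR adjusted p = 0.899), and its sign turned when KBP(KK/RR) replicate 5 (-0.00285) or 6 (-0.00163) or wild-type KBP replicate 2 (-0.0151) was left out.

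Mcm3, the ring's neighbour of Mcm5, had 523, 536 and 544 CPM in KBP(KK/RR) libraries, against 509, 503 and 534 CPM in wild-type KBP libraries. Wild-type KBP replicate 3 lay among the KBP(KK/RR) values, and the log2 fold change of 0.05 was not called (interval -0.03 to 0.13, edgeR adjusted p = 0.488). Mcm7, one of the core subunits with Mcm4 and Mcm6, had 521, 549 and 555 CPM in KBP(KK/RR) libraries, against 524, 524 and 542 CPM in wild-type KBP libraries. KBP(KK/RR) replicate 4 was the lowest of the 6, and the log2 fold change was 0.03 (interval -0.05 to 0.11, edgeR adjusted p = 0.700).

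For Mcm4 and Mcm6 every KBP(KK/RR) library lay above every wild-type KBP library, by little. Mcm4, whose tail is a major target of the Dbf4-dependent kinase, had 396, 392 and 398 CPM in KBP(KK/RR) libraries, against 375, 371 and 386 CPM in wild-type KBP libraries. Its log2 fold change was 0.07 (interval -0.01 to 0.14, edgeR adjusted p = 0.341). Mcm6, which contacts Cdt1 during loading, had 448, 439 and 461 CPM in KBP(KK/RR) libraries, against 438, 419 and 433 CPM in wild-type KBP libraries. The nearest pair across groups, KBP(KK/RR) replicate 5 and wild-type KBP replicate 1, had 10742 and 11448 counts and all but equal CPM. The log2 fold change of Mcm6 was 0.06 (interval -0.02 to 0.14, edgeR adjusted p = 0.391).

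**Figure D1:**
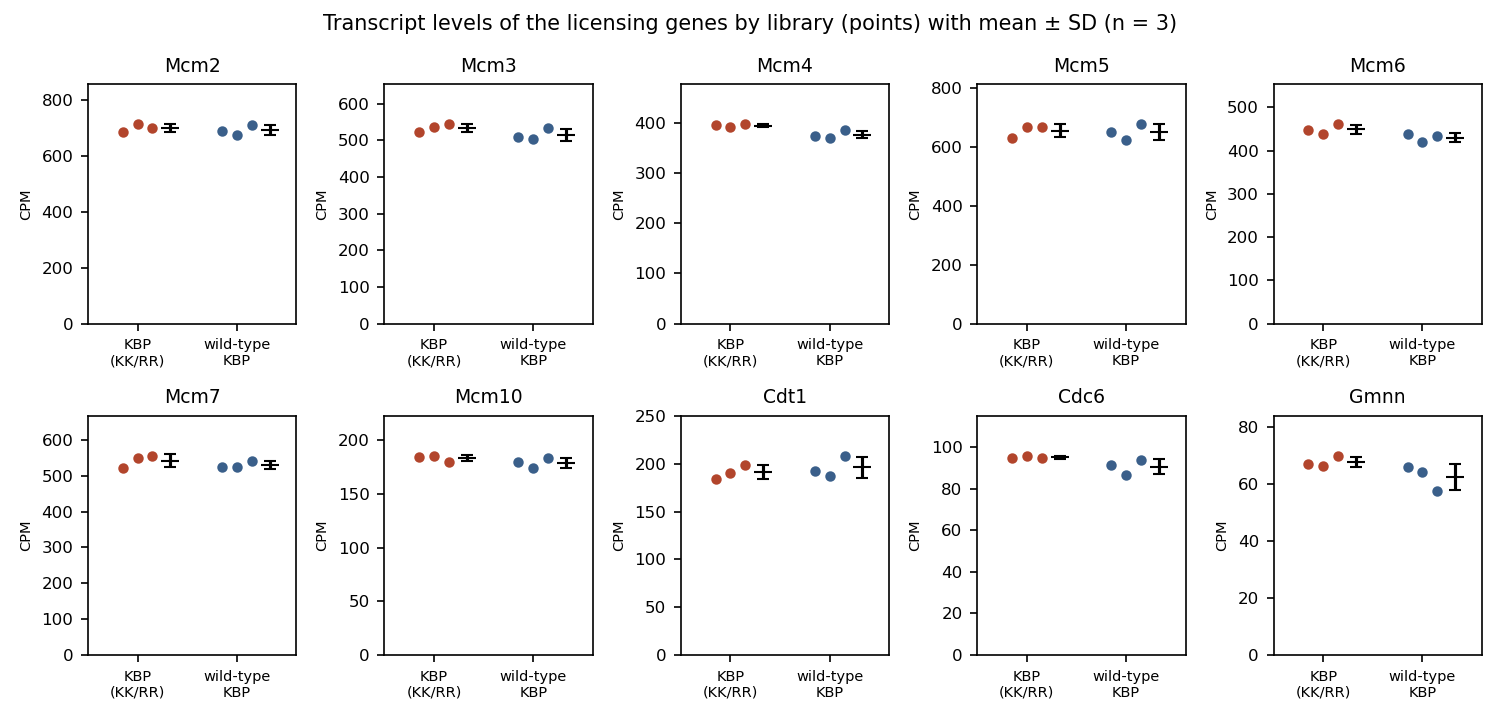
CPM (vertical axes, from 0) of each licensing gene by library, with KBP(KK/RR) libraries in red and wild-type KBP libraries in blue; points are libraries and black marks the mean ± SD of 3. The groups lie close together in every panel, and the lowest Gmnn library, at 57.3 CPM, is a wild-type KBP one.

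Among the loaders, Cdc6, an ATPase of the loading complex, had 95.03, 95.9 and 94.7 CPM in KBP(KK/RR) libraries, against 91.4, 86.8 and 93.9 CPM in wild-type KBP libraries. The KBP(KK/RR) values were tight and all above the wild-type KBP values. The difference was a log2 fold change of 0.07 (SE 0.04, interval -0.02 to 0.16, edgeR adjusted p = 0.409). Cdt1, which brings the ring to the origin, had 185, 191 and 199 CPM in KBP(KK/RR) libraries, against 193, 188 and 208 CPM in wild-type KBP libraries. It was the member with a negative log2 fold change, -0.04 (interval -0.13 to 0.05, edgeR adjusted p = 0.703), and this became 0.01 when wild-type KBP replicate 3 was left out or with a trend on transcript length and GC content removed.

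Gmnn, the licensing inhibitor, had 67.0, 66.3 and 69.8 CPM in KBP(KK/RR) libraries, against 65.8, 64.3 and 57.3 CPM in wild-type KBP libraries. KBP(KK/RR) libraries were all higher, the nearest pair being less than 1 CPM apart, and wild-type KBP replicate 3 stood below the rest. The log2 fold change of 0.11 (SE 0.05, 95% interval 0.01 to 0.22) was the highest of the 10, with an unadjusted p of 0.0367 and an edgeR adjusted p of 0.234. With wild-type KBP replicate 3 left out it was 0.06 (edgeR adjusted p = 0.622), and it was also 0.06 after removing the trend on length and GC content (0.429). In wild-type KBP replicate 3 Cdt1 was at its highest and Gmnn at its lowest. The ratio of Gmnn to Cdt1, each in CPM per kilobase of the longest annotated transcript, was 0.868, 0.831 and 0.841 in KBP(KK/RR) libraries, against 0.815, 0.820 and 0.658 in wild-type KBP libraries. The KBP(KK/RR) ratios were all higher, by little except against wild-type KBP replicate 3.

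Mcm10, the activation factor, had 185, 186 and 180.0 CPM in KBP(KK/RR) libraries, against 179.7, 174 and 184 CPM in wild-type KBP libraries. The groups overlapped, with a log2 fold change of 0.03 (interval -0.05 to 0.12, edgeR adjusted p = 0.690). Per kilobase of the longest annotated transcript, Mcm10 was at 0.239 ± 0.00787 of the mean ring subunit in KBP(KK/RR) cells and 0.239 ± 0.00130 in wild-type KBP cells (SD, n = 3 each). The size of this ratio depends on the transcript length used, and the SDs do not include that.

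**Figure D2:**
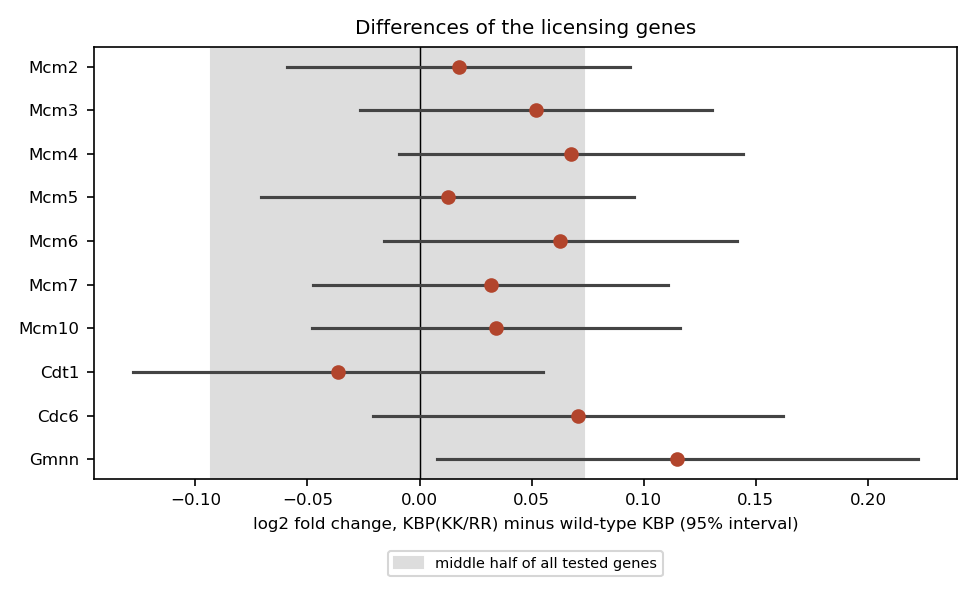
Log2 fold change (KBP(KK/RR) minus wild-type KBP, horizontal axis) of each licensing gene with its 95% interval from the edgeR fit; the grey band runs from the lower to the upper quartile of all tested genes. Points run from -0.04 for Cdt1 to 0.11 for Gmnn, and every interval except that of Gmnn includes 0.

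Levels were compared between genes as CPM per kilobase of the longest annotated transcript. Mcm2 was highest, at 200.5 ± 3.77 CPM per kilobase in KBP(KK/RR) cells and 198 ± 5.11 in wild-type KBP cells. It was followed by Mcm5 (194 ± 6.80 in KBP(KK/RR) cells and 192 ± 8.13 in wild-type KBP cells) and Mcm7 (183 ± 6.16 in KBP(KK/RR) cells and 179 ± 3.61 in wild-type KBP cells). Over the 6 libraries the ranges of Mcm2 and Mcm5 overlapped, as did those of Mcm5 and Mcm7. Mcm3 came next, at 156 ± 3.10 CPM per kilobase in KBP(KK/RR) cells and 150.2 ± 4.65 in wild-type KBP cells, apart from its neighbours on both sides. Mcm4 was at 110.1 ± 0.865 in KBP(KK/RR) cells and 105 ± 2.13 in wild-type KBP cells. Mcm6, at 103 ± 2.54 in KBP(KK/RR) cells and 98.7 ± 2.30 in wild-type KBP cells, overlapped with Mcm4.

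The regulators were lower than every ring subunit. Cdt1 stood at 71.0 ± 2.61 CPM per kilobase in KBP(KK/RR) cells and 72.8 ± 4.03 in wild-type KBP cells, and Gmnn at 60.1 ± 1.67 in KBP(KK/RR) cells and 55.4 ± 4.0 in wild-type KBP cells. Mcm10 stood at 37.7 ± 0.632 CPM per kilobase in KBP(KK/RR) cells and 36.8 ± 0.992 in wild-type KBP cells, and Cdc6 at 19.8 ± 0.131 in KBP(KK/RR) cells and 18.9 ± 0.755 in wild-type KBP cells. Ranges from Cdt1 down did not overlap with those of the next gene. The order was the same in both groups, and the highest ring subunit was 1.94 times the lowest in KBP(KK/RR) cells and 2.01 times in wild-type KBP cells. Order and span among the ring subunits depended on the length used, and these ratios hold for the longest transcript only. With the mean length of a gene's annotated coding transcripts, Mcm7 came first (472 CPM per kilobase in KBP(KK/RR) cells and 462 in wild-type KBP cells) and Mcm4 second (254 in KBP(KK/RR) cells and 242 in wild-type KBP cells), while Cdt1, Gmnn, Mcm10 and Cdc6 kept their places. Mcm6 was the lowest ring subunit by that length too (124 in KBP(KK/RR) cells and 118 in wild-type KBP cells), so the span was wider.

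**Figure D3:**
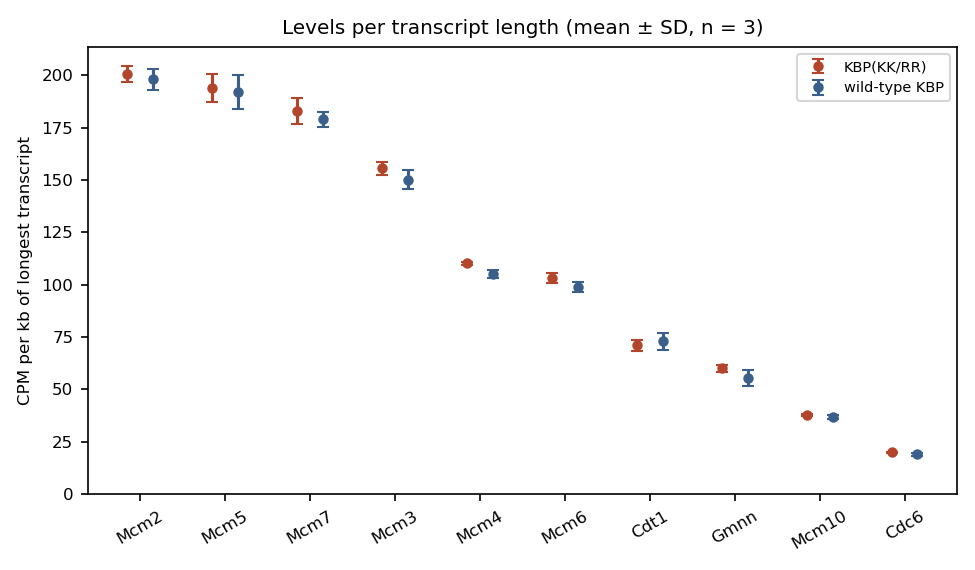
CPM per kilobase of the longest transcript (vertical axis, from 0) for each licensing gene, as mean ± SD of 3 libraries, KBP(KK/RR) in red left of wild-type KBP in blue. Ring subunits lie above the regulators, from Mcm2 at 200.5 down to Cdc6 at 19.8 CPM per kilobase in KBP(KK/RR) cells.

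The ring subunits were also summed by library. Added up over Mcm2 to Mcm7, CPM was 3205, 3299 and 3327 in KBP(KK/RR) libraries, against 3186, 3116 and 3283 in wild-type KBP libraries. KBP(KK/RR) replicate 4 lay below wild-type KBP replicate 3, so the groups overlapped. These 6 genes held 0.319% to 0.333% of all counts in KBP(KK/RR) libraries and 0.311% to 0.326% in wild-type KBP libraries. Wild-type KBP replicate 2 was the lowest library for 7 of the 10 genes and KBP(KK/RR) replicate 6 the highest for 5. How often these libraries were lowest or highest over all tested genes was not computed. All genes of a library share its scaling factor, so these counts are not separate observations. From its lowest to its highest library, Mcm2 varied 1.05-fold and Gmnn 1.22-fold, the extremes of the 10. The pooled within-group SD of log2 CPM had a median of 0.0388 over the 10 genes, against 0.0536 over the 5985 more abundant genes. These sets were not matched for abundance, the members' mean log2 CPM being 6.03 to 9.44, so the SDs do not show that the members are unusually steady.

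**Figure D4:**
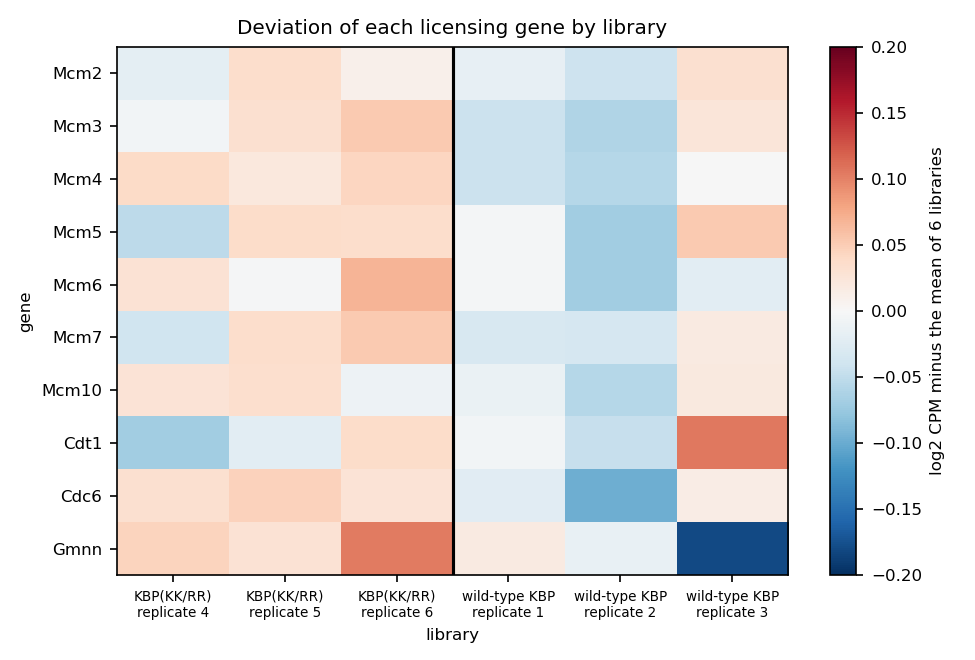
Log2 CPM of each licensing gene (rows) in each library (columns, KBP(KK/RR) left of the line) minus its mean over 6 libraries. Wild-type KBP replicate 2 is lowest for 7 genes, and Gmnn and Cdt1 deviate in opposite directions in wild-type KBP replicate 3.

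Closest to the mean profile of Mcm2 to Mcm7 over the 6 libraries, among 8063 other genes whose mean log2 CPM reached 4, were Rnps1, Rpl3, Ppp1ca and Hsp90ab1. Their root mean square distances were 0.00712 to 0.00870 on the log2 scale, against a median of 0.067 over these genes. Cdc6 (0.0265) and Mcm10 (0.0272) were near the profile too, with 343 and 383 other genes nearer. Cdt1 (0.0489) had 2101 and Gmnn (0.0902) 5874 other genes nearer, so Gmnn was farther than the median gene. The profile is nearly flat, and many genes without a difference resemble it.

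Genes that adjoin or overlap a member were next examined. Prkdc, the catalytic subunit of DNA-dependent protein kinase, starts 466 bases from Mcm4 on the opposite strand. It had 74.6, 56.5 and 50.8 CPM in KBP(KK/RR) libraries, against 62.5, 87.8 and 80.8 CPM in wild-type KBP libraries. The spread was far wider than that of Mcm4, and the log2 fold change of -0.35 was not called (interval -0.93 to 0.24, edgeR adjusted p = 0.481). Mcm7 overlaps Ap4m1, an adaptor complex subunit, by 421 bases and Cops6, a COP9 signalosome subunit, by 64 bases, both on the opposite strand. Whether counting used strand is not given in the sources used here, so reads in these overlaps cannot be assigned with certainty. Cops6 had a log2 fold change of 0.05 (edgeR adjusted p = 0.548) and Ap4m1 of -0.16 (0.232), neither called.

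Introns of Mcm7 also hold a cluster of miRNA genes, Mir106b, Mir93 and Mir25 (within chr5:138165321-138165818, minus strand), known in ES cells as regulators of cell-cycle inhibitors. Their main mature forms from RefSeq (GRCm38.p6) are printed to show which of them share a seed, bases 2 to 8, in capitals.
mmu-miR-106b-5p: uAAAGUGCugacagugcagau
mmu-miR-93-5p: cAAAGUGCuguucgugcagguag
mmu-miR-25-3p: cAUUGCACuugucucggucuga
The first and second share the seed AAAGUGC and the third has AUUGCAC. Mir25 had 50, 41 and 49 counts in KBP(KK/RR) libraries, against 59, 66 and 18 counts in wild-type KBP libraries. Wild-type KBP replicate 3 was the low one, and the log2 fold change of -0.05 had a wide interval, -0.71 to 0.60 (edgeR adjusted p = 0.946). Mir93 had 3, 3 and 3 counts in KBP(KK/RR) libraries, against 1, 5 and 3 in wild-type KBP libraries, and Mir106b 1, 1 and 5 in KBP(KK/RR) libraries, against 5, 1 and 3 in wild-type KBP libraries. Both were below the filter, so no difference was detectable at this depth. These counts come from a total RNA library and do not measure the mature miRNAs.

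Other replication genes were described by fixed lists, against the same 3.12% of tested genes called. Signs were counted without a test. Over the 5985 more abundant genes the median log2 fold change was 0.00, with quartiles of -0.07 and 0.05. All 6 subunits of the origin recognition complex had a positive log2 fold change, with a median of 0.05, and 0 were called by edgeR. Orc2 was 196 ± 6.37 CPM in KBP(KK/RR) cells and 188 ± 4.22 CPM in wild-type KBP cells (0.06, edgeR adjusted p = 0.453). Orc6 was 107 ± 1.04 CPM in KBP(KK/RR) cells and 102 ± 5.39 CPM in wild-type KBP cells (0.06, edgeR adjusted p = 0.464). Of 13 genes of helicase activation and origin firing, 3 had a positive and 10 a negative log2 fold change, the median was -0.02 and 0 were called by edgeR. Cdc7, the kinase that acts with Dbf4, was at -0.05 (edgeR adjusted p = 0.590) and Ticrr, which links kinase activity to origin firing, at -0.06 (0.561), turning to 0.01 with the trend on length and GC content removed. In these 2 lists 0 genes had an unadjusted p under 0.05.

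Among other MCM relatives and partners, 8 of 10 were tested and 0 were called by edgeR, with a median log2 fold change of -0.01. The histone chaperone gene Nasp was at 0.06 (edgeR adjusted p = 0.448) and the origin complex partner Lrwd1 at -0.05 (0.600). Mcidas was not analysed here, and Gmnc was below the filter. An unadjusted p under 0.05 was reached by 0 of the 8.

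Of 16 genes listed for the control of licensing by kinases and ubiquitin ligases, among them partners and regulators of these enzymes, 1 was called higher and 0 lower. Their median log2 fold change was 0.03. Skp1a, a core subunit of the SCF ligases that act on Cdt1, had 334, 311 and 333 CPM in KBP(KK/RR) libraries, against 292, 282 and 267 CPM in wild-type KBP libraries. Every KBP(KK/RR) library was higher, at a fold change of 1.16 (95% interval 1.09 to 1.24, edgeR adjusted p = 0.00545), but it did not pass with KBP(KK/RR) replicate 6 left out (0.0608). Cul4b, the scaffold of another ligase that acts on Cdt1, was 498 ± 32.04 CPM in KBP(KK/RR) cells and 470.4 ± 8.42 CPM in wild-type KBP cells (log2 fold change 0.08, edgeR adjusted p = 0.302).

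Of 28 replication fork and polymerase genes, 1 was called higher and 0 lower, with a median log2 fold change of 0.05. An unadjusted p under 0.05 was reached by 7 of the 28, against 18.6% of all tested genes and 24.1% of the abundant ones. Prim2, the large primase subunit, had 55.6, 58.8 and 57.8 CPM in KBP(KK/RR) libraries, against 50.6, 51.1 and 47.6 CPM in wild-type KBP libraries. The groups were apart by more than the spread within either, at a fold change of 1.15 (95% interval 1.07 to 1.24, edgeR adjusted p = 0.0250). Prim2 no longer passed edgeR's threshold when KBP(KK/RR) replicate 5 (adjusted p = 0.0844) or 6 (0.119) was left out, nor when the one left out was wild-type KBP replicate 2 (0.0554) or 3 (0.0912). Tipin, a fork protection factor, was 157 ± 6.75 CPM in KBP(KK/RR) cells and 144 ± 4.78 CPM in wild-type KBP cells (log2 fold change 0.12, edgeR adjusted p = 0.123).

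All 8 genes of nucleotide supply had a positive log2 fold change, with a median of 0.06, and 0 were called by edgeR. Rrm1, the large subunit of ribonucleotide reductase, was at 0.07 (edgeR adjusted p = 0.343). An unadjusted p under 0.05 was reached by 1 of the 8. Of 15 mitosis genes 0 were called by edgeR, with a median of 0.03, and 3 of the 15 had an unadjusted p under 0.05. The shares were 18.6% of all tested genes and 24.1% of those whose mean log2 CPM reached 5, as it did in every mitosis gene. Birc5, the survivin gene, was at 0.09 (edgeR adjusted p = 0.243). The kinetochore motor gene Cenpe was 139 ± 13.5 CPM in KBP(KK/RR) cells and 154 ± 5.06 CPM in wild-type KBP cells (log2 fold change -0.15, edgeR adjusted p = 0.174). Cenpe was called lower without KBP(KK/RR) replicate 4 (0.00208) or without the low-count filter (0.0202). With the trend on length and GC content removed it was smaller and not called, at -0.09 (edgeR adjusted p = 0.131). The same held without KBP(KK/RR) replicate 5 (-0.10, 0.3885) or 6 (-0.11, 0.4665). Mki67, named after its values were seen, had the lowest value of the list, -0.39 (edgeR adjusted p = 0.339).

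**Figure D5:**
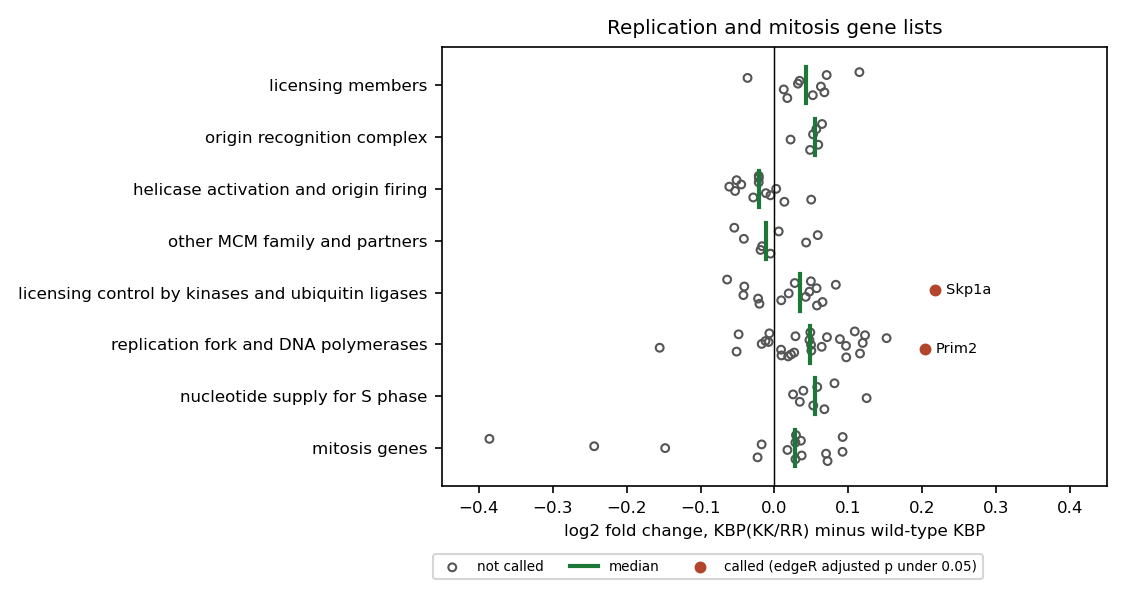
Log2 fold change (KBP(KK/RR) minus wild-type KBP, horizontal axis) of each tested gene in 8 lists, with filled points for called genes and green bars for medians. Skp1a and Prim2 are the called genes, and list medians run from -0.02 to 0.06.

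Markers of other cells that a culture could hold were read beside these values. In bulk samples, fewer cells of a type and less RNA per cell cannot be told apart. Of 10 fibroblast or feeder markers 5 were tested and 0 were called by edgeR (0 with an unadjusted p under 0.05), and their summed level was 20.9 to 21.2 CPM in KBP(KK/RR) libraries and 20.6 to 23.3 CPM in wild-type KBP libraries. Lum was at 0 in all wild-type KBP libraries and had 0, 0 and 1 counts in KBP(KK/RR) libraries. Of 6 neural markers 4 were tested and 0 were called by edgeR (2 with an unadjusted p under 0.05), with sums of 113 to 123 CPM in KBP(KK/RR) libraries and 113 to 118 CPM in wild-type KBP libraries. Those 2, named after their values were seen, went opposite ways, Sox1 at a log2 fold change of -0.18 and Map2 at 0.24, and most of the sum was Tubb3 (86.5 ± 5.29 CPM in KBP(KK/RR) cells and 82.8 ± 3.79 CPM in wild-type KBP cells). Of 8 primitive endoderm markers 7 were tested and 2, Col4a1 and Pdgfra, were called lower (edgeR adjusted p = 0.017 and 0.0342). Among all tested genes 2.07% were called lower. An unadjusted p under 0.05 was reached by 3 of the 7. Pdgfra was near the floor, at 1.46 CPM in KBP(KK/RR) cells and 2.32 CPM in wild-type KBP cells. These 2 calls were not followed over the alternatives. The sums of the 8 markers were 249 to 296 CPM in KBP(KK/RR) libraries and 317 to 392 CPM in wild-type KBP libraries, which do not overlap. In this list 0 markers were at 0 in all libraries. Lama1 and Col4a1 made up most of these sums, and Lama1 was not called (161 ± 18.8 CPM in KBP(KK/RR) cells and 227 ± 27.6 CPM in wild-type KBP cells, edgeR adjusted p = 0.169). Ranges of Gata4, Gata6, Sox17 and Dab2 overlapped between the groups. Lama1 and these 4 were named after their values were seen. Mitosis genes summed to 3823 to 4023 CPM in KBP(KK/RR) libraries and 3850 to 4007 CPM in wild-type KBP libraries, which overlap. The part of these differences in the values of the licensing genes was not tested.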

How the data were processed

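Per the labels' protocols, RiboZero removed ribosomal RNA from total RNA, and ScriptSeq v2 was the library kit. The submitters' processing notes name bcl2fastq, TopHat, HTSeq and DESeq2, and the builds mm10 and GRCm38; for their versions, annotation, strand setting and filters: not given in the sources used here. Raw counts, as deposited, are whole numbers per gene symbol. The deposited normalized signal was, by its values, made by the authors by dividing each count by 1 factor per library: 100% of its values above 0 came out as whole reads within 0.01, and 0 differed from the raw counts. Recovered reads, an alternative chosen after seeing the data, were thus the raw counts themselves. That run repeats the main fit and could only call the same 448 genes.

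All genes passing filterByExpr were tested in R 4.3.3 by the robust quasi-likelihood fit of edgeR 4.0.16 on TMM factors, with Benjamini-Hochberg adjustment over all of them and a threshold of 0.05. SE is the absolute log2 fold change over the square root of F, and 95% intervals use the fit's degrees of freedom. CPM uses TMM-scaled totals. Lengths, GC content and coordinates come from GENCODE M21. Promoters and miRNAs come from RefSeq. On simulated data with 200 changed genes among 14340, it recovered 47.8% at a fold of 1.2, 85.1% at 1.5 and 93.9% at 2. At a mean of at least 32 CPM, as all members have, it recovered 87.5% of 24 genes at a fold of 1.2. It called 18 unchanged genes, and intervals covered 95.006% of true values. No fold below 1.2 was simulated, so recovery at the members' fold changes, 0.975 to 1.08, is not known. The simulated counts were drawn gene by gene, without deviations that genes share within a library.

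Replicates within a group differed by 2.71 to 7.23 in chi-square per degree of freedom, so each was kept as a sample. The members and the gene lists were chosen with earlier results of these data known. The text names all members, listed genes that were called, up to 2 per list with the smallest p, the 5 genes nearest the ring subunits' profile, genes overlapping a member or starting within 1000 bases of its start, and Pou5f1, Nanog, Sox2 and the KBP gene. Genes that this rule also names but that are withheld are not reported here. Alternatives were DESeq2 1.42.0, limma-voom (limma 3.58.1), limma on log2 of the normalized signal plus 1, other scalings and filters, removal of a trend on length and GC content (splines with 5 degrees of freedom), and each library left out.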

Additional observations from a re-analysis of the deposited data

How the results depend on the processing

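Over 16 alternatives, 0 of the 10 licensing genes were called in any, though the run on recovered reads only repeats the main fit. The smallest edgeR adjusted p of a member was 0.157, for Gmnn with upper-quartile scaling. Signs held in 155 of 160 member values, among them those from recovered reads, which could not differ. With each library left out in turn, the log2 fold change of Mcm5 ran from -0.0151 to 0.0423 (below 0 without KBP(KK/RR) replicate 5 or 6 and without wild-type KBP replicate 2), and that of Cdt1 from -0.0657 to 0.00800 (above 0 without wild-type KBP replicate 3). For Lrwd1 the range was -0.0901 to 0.00187 and for Mir25 -0.365 to 0.169. After removing the trend on length and GC content, Cdt1 was 0.0087, Ticrr 0.0149 and Mir25 0.157, and Mir25 was 0.0818 in limma-voom and 0.128 in limma on the normalized signal. The cause of these turns was not tested. The number of called genes in the whole table, 448, was 270 in limma-voom, 966 without a low-count filter, 689 with the trend removed (310 higher and 379 lower) and 307 in DESeq2. With each library left out it ran from 122, without KBP(KK/RR) replicate 6, to 767, without KBP(KK/RR) replicate 4; it was 174 and 277 without wild-type KBP replicates 2 and 3, and 281 without KBP(KK/RR) replicate 5. No paired analysis was possible because the groups share no replicate numbers. Rows with few counts, such as Mir93 and Mir106b, were below the filter and not tested.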
